A study of Mus musculus with 24 samples.

Results

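The genes of cytosolic ribosomal proteins were examined in CD4+ T cells with and without BAF180. Members were the probes whose gene symbol has the form of a large-subunit (Rpl) or small-subunit (Rps) protein, together with Rplp0, Rplp1, Rplp2 and Rpsa, and the S6 kinases (Rps6k) were left out. This rule uses the symbol only and no measured value. It found 77 of the 25697 probes of the array, which stand for 62 genes, 35 of the large and 27 of the small subunit. For comparison, 84 protein-coding genes of the mouse in RefSeq have a symbol of this form. A further 5 ribosomal protein genes were on the array under older symbols, with 8 probes, and lie outside the rule: Rplp0 (as Arbp), Rpsa (as Lamr1), Rps9, Rpl22l1 and Rpl39l.

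RNA came from CD4+ T cells of mice aged 4 to 6 weeks, and was measured on 24 Illumina MouseRef-8 v2 BeadChips, which carry oligonucleotide probes of 50 bases. Each of 4 cell states had 3 WT and 3 BAF180-deficient arrays, lettered A, B and C within a group. The resting Naïve state held CD4+CD62L+ cells of spleen and lymph node at 95% purity. Stimulated Naïve cells had spent 24 h with anti-CD3 (1 µg/ml) and anti-CD28 (2 µg/ml). Resting Th2 cells were Naïve cells grown on the same antibodies with IL-4 (10 ng/ml), anti-IFN-γ (10 µg/ml) and IL-2 (100 U/ml). Stimulated Th2 cells then received PMA (50 ng/ml) and ionomycin (500 ng/ml) for 1.5 h. In the BAF180-deficient mice exon 11 of the BAF180 gene (Pbrm1) is flanked by loxP sites and is removed by a Cre that the CD4 promoter drives, so the loss is limited to cells that have expressed CD4. The labels give the strain as Balb/c, while the methods describe a mixed B6-129 background, and which holds for these arrays was not settled.

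Each ribosome consists of a small subunit, which decodes the mRNA, and a large subunit, which joins the amino acids. Most ribosomal proteins are present as 1 copy per ribosome, and their mRNAs are among the most abundant of a cell. Many of these mRNAs begin with a C and a run of pyrimidines, the 5′ terminal oligopyrimidine (TOP) motif, through which mTORC1 sets their translation, so that protein synthesis can rise without a matching rise of the mRNA. Naïve T cells are small and make little protein, and after stimulation of the T cell receptor they grow, build ribosomes and divide. BAF180 is a subunit of PBAF, a SWI/SNF complex that remodels nucleosomes.

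The sequences around the transcription start show which members carry a TOP-like start. Of the 62 member genes, 48 matched the RefSeq promoter table (GRCm38.p6), and 21 of these (43.8%) had, on the transcribed strand and within 5 bases of an annotated start, a C followed by at least 5 bases that are each C or T. Over all 27025 genes of that table the share was 11.9% (3229 genes). Annotated starts can lie some bases from the true ones, so a gene without a match is only without these letters at this place. The lines that follow give 25 bases before and 25 after the start, with the run in capitals, for genes that recur in the comparisons and for Rps6, the phosphorylation target of the S6 kinases.
Rps27 (chr3:90213624-90213673, minus strand): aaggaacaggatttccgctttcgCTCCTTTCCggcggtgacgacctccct
Rps24 (chr14:24490653-24490702, plus strand): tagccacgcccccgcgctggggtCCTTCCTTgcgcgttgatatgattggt
Rpl13a (chr7:45128721-45128770, minus strand): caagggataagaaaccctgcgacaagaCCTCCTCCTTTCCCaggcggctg
Rps6 (chr4:86857343-86857392, minus strand): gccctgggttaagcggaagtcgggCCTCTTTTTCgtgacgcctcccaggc
Without such a run at the start shown were the paralogs Rps27l and Rpl3l and the T cell development gene Rpl22.
Rps27l (chr9:66946061-66946110, plus strand): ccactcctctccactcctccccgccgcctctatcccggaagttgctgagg
Rpl22 (chr4:152325701-152325750, plus strand): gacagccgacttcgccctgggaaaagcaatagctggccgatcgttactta
Rpl3l (chr17:24727801-24727850, plus strand): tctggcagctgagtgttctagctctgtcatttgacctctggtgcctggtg

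The array sees each gene through its probe, and the probes of paralogs are not interchangeable. Rps27l and Rps27 encode near-identical proteins, and their probes were these.
Rps27l: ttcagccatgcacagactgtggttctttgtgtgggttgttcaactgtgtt
Rps27: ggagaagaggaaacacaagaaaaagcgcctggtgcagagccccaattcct
The probe of Rpl22l1, the paralog of Rpl22, was the following.
Rpl22l1: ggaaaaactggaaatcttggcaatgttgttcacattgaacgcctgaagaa
A pair of probes needs care. The dimmer probe of Rpl38 has its first 28 bases upstream of the RefSeq start, and in it the capitals mark the bases from that start on, which begin with a TOP-like run.
Rpl38, dimmer probe: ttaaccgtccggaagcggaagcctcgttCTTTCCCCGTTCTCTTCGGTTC
The brightest probe of Rpl23 holds a word, in capitals, that recurs near other genes. Words of 16 bases from this probe were found in 52 of 32851 promoter windows, of 50 genes, and no other member probe shared such a word with more than 3 windows.
Rpl23, first 30 bases: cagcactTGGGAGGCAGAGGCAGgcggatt
Ribosomal protein genes have many processed pseudogenes, and the probes were not compared with those.

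Of the 77 member probes, 73 (61 genes) were kept because at least 1 array detected them, at a detection cut-off of 0.02, among 14246 such probes in all. Detection on all 24 arrays was seen for 61 probes, on 1 to 23 arrays for 12 and on none for 4. Among the 12, Rpl3l was detected in resting Naïve cells only and the second probe of Rps27a on the 3 BAF180-deficient arrays of stimulated Naïve cells only. Both passed the filter through the group where they are high, so their differences from other groups are given as values, and the counts of calls include them. The 61 probes stand for 54 genes, and the 8 genes without such a probe were Rpl3l, Rpl6, Rpl14, Rpl17, Rpl21, Rplp2, Rps15a and Rps23. The members were bright: after normalization 34 had a mean above 12 on the log2 scale, 25 between 8 and 12, and 14 below 8. Rplp1, an acidic protein of the large-subunit stalk that recruits elongation factors, was the brightest of all 25697 probes on 22 of 24 arrays. On those 22 arrays its normalized value is the same by construction (14.64), so its level cannot be compared between them. Between 26 and 39 of the 100 brightest probes of an array were members.

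Depth and labels were checked first. Between 8047 and 10689 probes were detected per array. Pbrm1, which stands on the array under an older symbol, has 1 probe detected on all 24 arrays, and it was lower in BAF180-deficient than in WT cells by a log2 difference of -1.01 (limma adjusted p = 0.121) in resting Naïve, -1.63 (adjusted p = 0.00746) in stimulated Naïve, -1.86 (adjusted p = 0.00101) in resting Th2 and -1.42 (adjusted p = 0.0141) in stimulated Th2 cells. In the deposited values it was 139 to 310 in WT and 102 to 151 in BAF180-deficient resting Naïve cells, which overlap, and the ranges did not overlap in the other states. Whether the probe lies in the deleted exon was not tested. T cell markers (Cd3e, Cd3d, Cd3g, Cd4, Cd2, Cd5, Lck, Cd28) were detected on every array. Resting Naïve arrays stood apart in markers of other cells. Their summed intensity of 9 myeloid markers was 1056 to 4672, against 356 to 496 on all other arrays, and that of 4 erythroid markers was 283 to 8219 against 163 to 520. The sum of 8 B cell markers was 578 to 1378 on resting Naïve arrays and 320 to 1163 elsewhere. S100a9, Cd14, Lyzs, Fcgr3 and Tyrobp were detected in resting Naïve cells only. The myeloid marker Itgam, like Pax5, Cd8a and Ncr1, was detected in no group. The part of these cells in the differences from resting Naïve cells was not tested. All 10 kept myeloid probes were lower in stimulated Naïve and in resting Th2 than in resting Naïve cells (all probes 25.7% and 22.5%). In RNA from whole cell populations, fewer cells of a type and less RNA per cell cannot be told apart.

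As a family, ribosomal protein mRNAs were brighter on every stimulated Naïve and Th2 array than on any resting Naïve array in the deposited values. The median of the 61 always detected probes was 1636 to 3496 intensity units in resting Naïve, 3732 to 6213 in stimulated Naïve, 4258 to 8599 in resting Th2 and 5230 to 9446 in stimulated Th2 cells. The whole array was dimmer as well, however, since the mean intensity of all probes was 85.3 to 123 in resting Naïve cells against 121 to 265 in the other states. Taken as a share of the summed intensity of the array, all 77 member probes made up 9.02% ± 1.17 (SD, n = 6) in resting Naïve, 9.24% ± 0.33 in stimulated Naïve, 9.70% ± 0.52 in resting Th2 and 10.8% ± 1.10 in stimulated Th2 cells. These ranges overlap between all states. The direction of the family therefore rests on the scaling. After quantile normalization the median member difference between stimulated and resting Naïve cells was 0.09 (all probes 0.02), with Z-scores, the normalization of the methods, it was -0.65, and with only the array medians aligned it was 0.94, where the median of all probes moved by 0.25. The differences between resting Th2 and resting Naïve cells were 0.11, -0.30 and 1.04 under the same scalings, with all probes at 0.43 under the last. Stimulated against resting Th2 cells gave 0.09, 0.30 and 0.08, the same sign under each. No direction is therefore given for the family against resting Naïve cells, and the values below are from the quantile-normalized data, relative to the other genes of an array, apart from the paralog ratios, whose scale is given there. Called differences of the named members that turn sign under another scaling are marked.

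**Figure D1:**
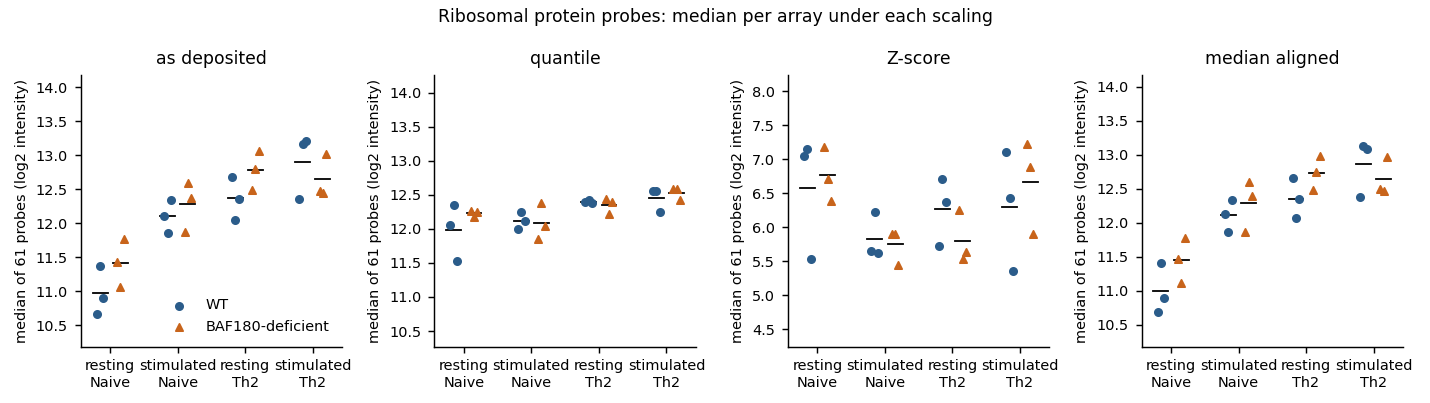
Median log2 intensity of the 61 member probes detected on all 24 arrays, 1 point per array (circles WT, triangles BAF180-deficient, bars the mean of 3), as deposited and after quantile, Z-score (rescaled to the mean SD of the arrays) and median-aligned scaling. The order of resting Naïve against the other states is upward in the deposited and median-aligned values, nearly flat after quantile normalization and downward with Z-scores.

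Stimulation of Naïve cells moved some members up and others down. This comparison and that of resting Th2 with resting Naïve cells share the 6 resting Naïve arrays. Of 73 member probes 16 were higher and 10 lower at an adjusted p below 0.05, that is 21.9% and 13.7%, against 29.3% higher and 25.7% lower of all 14246 probes. Only 6 members rose by more than 1 on the log2 scale (8.22%, all probes 11.2%) and none fell by as much (all probes 9.88%). Large-subunit probes were higher in 9 and lower in 5 of 43, and small-subunit probes in 7 and 5 of 30. With Z-scores 10 were higher and 35 lower, and with aligned medians 55 were higher and 1 lower. Of the 16 higher probes, 12 kept their sign under all 4 scalings tried and 10 were called under each, while of the 10 lower ones 2 kept their sign, those of the brightest Rpl23 probe and of Rpl3l. Rpl3l had passed the filter through resting Naïve arrays alone.

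The largest rise was that of Rps27a, whose product is a fusion of ubiquitin with a small-subunit protein. In resting Naïve cells its brighter probe read 8.19, 8.73 and 9.05 on the WT arrays A, B and C and 8.91, 8.33 and 9.28 on the BAF180-deficient arrays. After stimulation it read 11.88, 11.18 and 11.50 in WT and 11.93, 11.40 and 11.44 in BAF180-deficient cells. All 6 stimulated arrays were above all 6 resting ones, by 2.81 ± 0.17 (SE, adjusted p = 1.1e-11), and the rise was 2.69 with Z-scores. This probe is annotated as specific to 1 transcript isoform of the gene, and the probe annotated for all isoforms, read 0.43 higher after stimulation but was detected on none of the resting arrays, so its level at rest is only bounded.

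Rps27l, a paralog of Rps27 and a p53 target, rose by 2.19 ± 0.13 (adjusted p = 1.77e-11). It was 10.16, 10.33 and 9.42 in WT and 10.57, 10.55 and 10.33 in BAF180-deficient resting Naïve cells. Stimulated Naïve cells had 12.49, 12.07 and 12.33 in WT and 12.51, 12.46 and 12.67 without BAF180, so that the groups did not overlap. Its parent Rps27 went the other way in these values. Rps27 was 12.68, 13.04 and 11.79 in WT and 12.95, 13.04 and 12.63 in BAF180-deficient resting cells, against 11.79, 12.24 and 11.98 and 11.74, 12.20 and 11.88 after stimulation. The difference of -0.72 ± 0.18 (adjusted p = 0.00197) turned to 0.30 with aligned medians, and 1 resting array, WT C, lay among the stimulated ones.

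Other rises were those of Rpl13a, Rpl7a and Rpl29. Rpl13a, which is also part of an interferon-induced translational silencing complex, was 7.49 to 8.85 on the 6 resting and 8.96 to 9.78 on the 6 stimulated arrays, without overlap (1.24 ± 0.19, adjusted p = 1.18e-05). Rpl7a, a large-subunit protein, read 8.22 to 9.08 at rest and 9.01 to 10.01 after stimulation, a rise of 0.74 ± 0.19 (adjusted p = 0.00202). Rpl29, a large-subunit protein that also binds heparin, rose by 0.67 ± 0.25 (adjusted p = 0.0281), but this call was lost with Z-scores and without any 1 of 5 arrays (WT A and BAF180-deficient C of the resting, WT B, WT C and BAF180-deficient B of the stimulated Naïve state), where the adjusted p was 0.0631 to 0.0886.

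The falls were smaller and most rested on the scaling. Rpl23, a large-subunit protein that also binds the p53 regulator MDM2, was 13.47 to 13.63 at rest and 12.47 to 12.95 after stimulation on its brightest probe (-0.87 ± 0.21, adjusted p = 0.0012, and -0.12 with an adjusted p of 0.507 with aligned medians). This is the probe with the recurring word shown above. Rpl22, whose loss in mice blocks the development of αβ T cells, read 8.17, 8.11 and 8.03 in WT and 8.43, 8.40 and 8.17 in BAF180-deficient resting Naïve cells. It read 7.80, 7.56 and 6.84 and 7.47, 7.35 and 7.23 after stimulation, lower on all 6 arrays (-0.84 ± 0.23, adjusted p = 0.00345), yet 0.16 higher with aligned medians. Rps14, the gene whose haploinsufficiency marks the 5q deletion syndrome, differed by -0.47 ± 0.10 (adjusted p = 0.000399) and by 0.35 (adjusted p = 0.0456) with aligned medians.

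Rpl3l, the paralog of Rpl3 known from heart and skeletal muscle, was dim and spread widely among resting Naïve arrays. It was 5.80, 5.27 and 4.25 in WT and 5.91, 4.90 and 4.55 in BAF180-deficient resting Naïve cells, and between 4.20 and 4.48 on all 18 other arrays. It was detected on 4 of 24 arrays, all of them resting Naïve, and not well above background on any array of the other states. Against the lowest detected signal of each stimulated Naïve array its resting mean was at least 1.39-fold higher, which the filter on detection had in part fixed. The resting Naïve state is also the one with markers of myeloid and erythroid cells, whose part in this was not tested.

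Resting Th2 cells, differentiated in culture, were compared with the resting Naïve cells they are made from. Of the 73 probes 20 were higher (27.4%, all probes 27.2%) and 5 lower (6.85%, all probes 22.5%). With Z-scores 10 were higher and 28 lower, with aligned medians 57 and 1, and of the 20 higher probes 14 kept their sign under all 4 scalings and 10 were called under each. Large-subunit probes were higher in 12 and lower in 2 of 43, and small-subunit probes in 8 and 3 of 30. A log2 difference above 1 was passed by 4 of the higher probes (5.48%, all probes 7.24%) and by none of the lower (all probes 7.11%). The number of lower probes moved most with single arrays, to 3 without resting Naïve WT A or resting Th2 BAF180-deficient A, 2 without resting Naïve WT B, and 8 without resting Naïve WT C, the array on which the normalized member median was lowest (11.53, others 11.86 to 12.59).

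Rps27l led again. Resting Th2 cells had 12.22, 11.74 and 11.92 in WT and 12.05, 12.35 and 12.40 without BAF180, all above the resting Naïve arrays, by 1.89 ± 0.13 (adjusted p = 3.26e-10). Rpl13a was 8.61 to 9.65 (1.03 ± 0.19, adjusted p = 0.00015), and its lowest Th2 array lay below its highest Naïve array. Rps27a was 9.64, 9.53 and 9.84 in WT and 9.80, 9.71 and 10.11 in BAF180-deficient cells, above all resting Naïve arrays by 1.03 ± 0.17 (adjusted p = 3.03e-05) and below all stimulated Naïve arrays. Rpl29 rose by 0.80 ± 0.25 (adjusted p = 0.0117) on its brighter and differed by -0.10 (adjusted p = 0.827) on its dimmer probe.

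The lower members rested on the probe and the scaling. Rpl3l was detected on no resting Th2 array, as described above. Rpl23 on its brightest probe differed by -0.79, Rps24 by -0.35 and Rps14 by -0.28, with adjusted p-values of 0.00362, 0.0331 and 0.0278. With aligned medians the same differences were 0.068, 0.51 and 0.64. Most other probes of Rps24 and Rpl23 read higher on this scale. The dim probe of Rps24 rose by 1.09 (adjusted p = 1.44e-05), and of the other Rpl23 probes one rose by 0.49 (adjusted p = 0.0352), one differed by 0.33 (adjusted p = 0.131) and one, detected on 2 arrays, by -0.16 (adjusted p = 0.228). Rps24 is a small-subunit protein in which mutations cause Diamond-Blackfan anaemia. Its call was lost without any 1 of 7 of the 12 arrays (resting Naïve WT A, WT B and BAF180-deficient B, resting Th2 WT B, WT C and BAF180-deficient A and B), and that of Rps14 without resting Naïve WT B, resting Th2 WT A or resting Th2 BAF180-deficient B.

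Stimulation of Th2 cells for 1.5 h changed fewer members. Higher were 8 of 73 (11%, all probes 18.3%) and lower 2 (2.74%, all probes 20.6%), and no member passed a log2 difference of 1 (all probes 5.45% higher and 5.97% lower). All 8 higher probes had the same sign under all 4 scalings, but 1 was called under each, the dimmer probe of Rps3, and with aligned medians 2 were higher. Small-subunit probes were higher in 6 and lower in 1 of 30, and large-subunit probes in 2 and 1 of 43. In a fit of the Th2 arrays alone 17 were higher, and with 1 probe per gene 5. Without any of 4 arrays (resting Th2 WT A and BAF180-deficient B, stimulated Th2 WT C and BAF180-deficient A) 1 probe was lower in place of 2.

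Rps27a rose in this comparison as well, to 10.57, 10.64 and 10.82 in WT and 10.79, 10.60 and 10.85 in BAF180-deficient cells, above all resting Th2 arrays (0.94 ± 0.17, adjusted p = 1e-04, and an adjusted p of 0.0806 with aligned medians). Rpl35a, a large-subunit protein mutated in some Diamond-Blackfan anaemia, was 10.38 to 11.31 at rest and 11.32 to 11.71 after stimulation (0.79 ± 0.19, adjusted p = 0.00233). Rps3a, which lies at the mRNA exit of the small subunit, was 8.21 to 9.14 and then 9.13 to 9.56 (0.68 ± 0.20, adjusted p = 0.00999). A smaller rise was that of Rpl12, at 0.38 ± 0.13 (adjusted p = 0.0239, 0.0501 to 0.0753 without any of resting Th2 WT A and BAF180-deficient A and stimulated Th2 WT A, WT B and BAF180-deficient A).

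Rpl22 fell in stimulated Th2 cells under all 4 scalings. Resting Th2 arrays read 8.01, 8.40 and 7.42 in WT and 8.25, 8.21 and 7.20 without BAF180. After stimulation it was 7.34, 7.50 and 6.27 in WT and 7.13, 7.25 and 6.55 without BAF180. Each stimulated array was lower than the resting array of the same genotype and letter, but letters were checked as pairs within a state only. The mean difference in limma, without pairing, was -0.91 ± 0.23 (adjusted p = 0.00288). Array C of each group was the lowest, and the resting and stimulated groups overlapped. Rps4x, the X-linked small-subunit protein, differed by -0.30 ± 0.10 (adjusted p = 0.0228) and by 0.13 with Z-scores. Its adjusted p was between 0.069 and 0.0795 without any 1 of the same 4 arrays that set the count of lower probes.

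**Figure D2:**
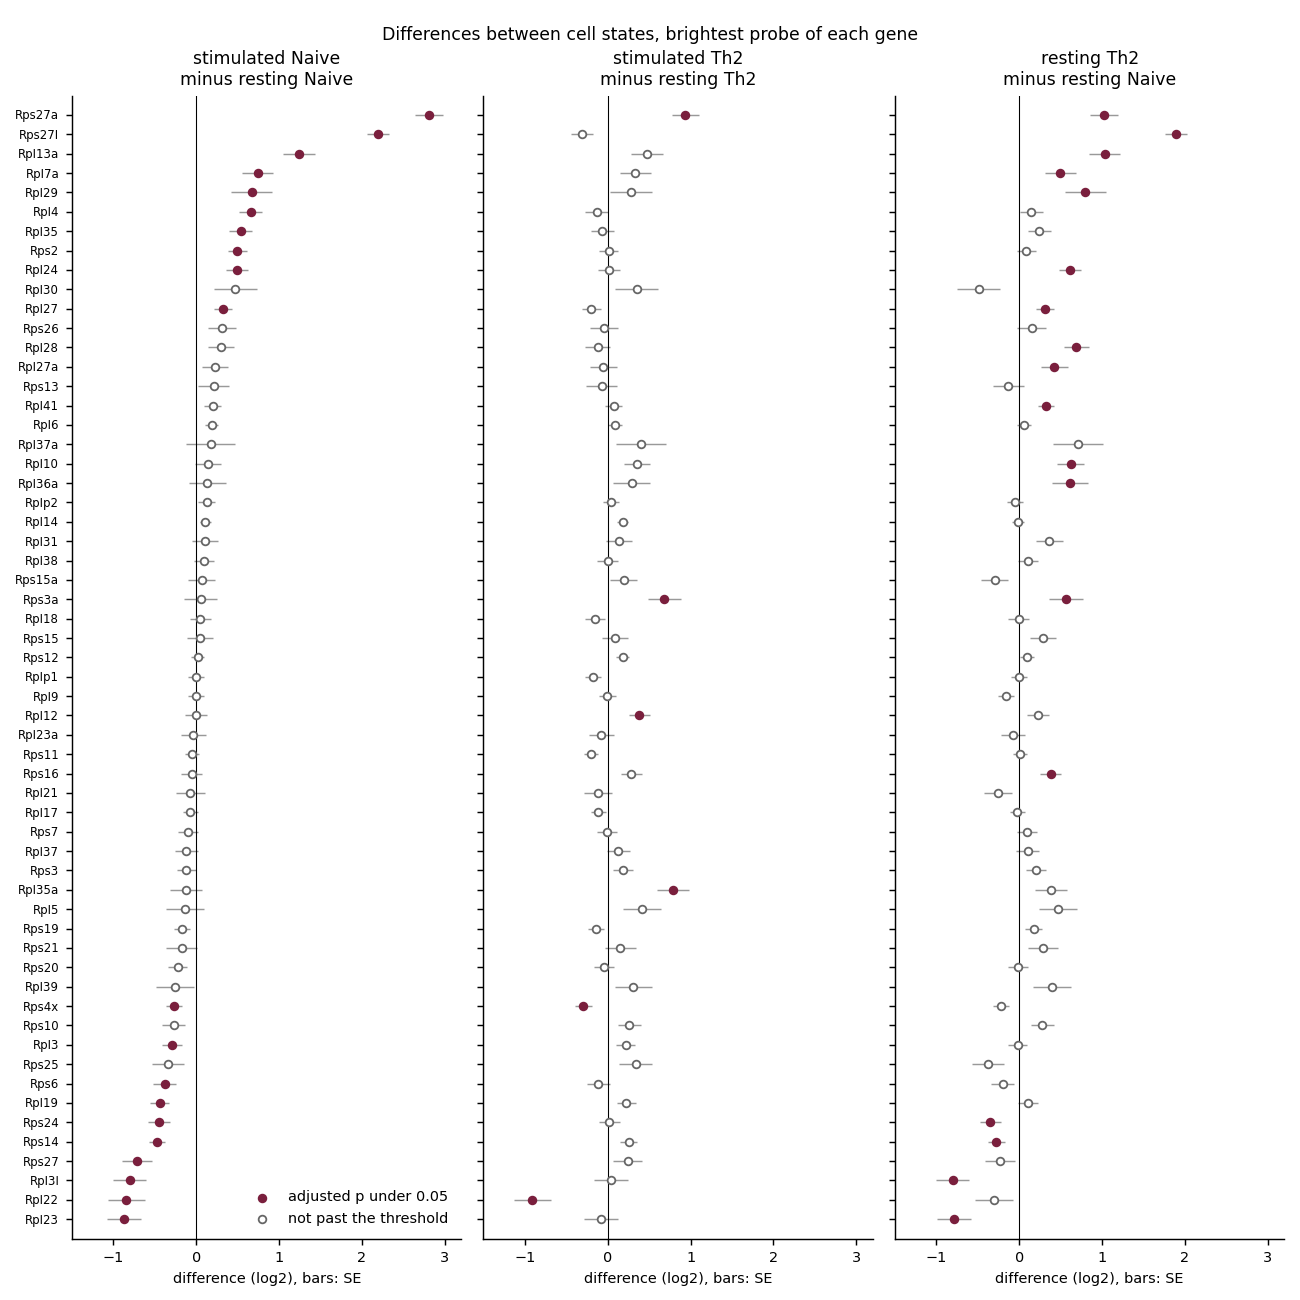
Difference between cell states on the log2 scale, with SE bars, for the brightest probe of each of 58 ribosomal protein genes (rows), in 3 comparisons of 6 against 6 arrays (panels), with filled points past an adjusted p of 0.05. Rps27a and Rps27l lie far to the right in stimulated against resting Naïve cells, at 2.81 and 2.19, while most genes lie within 0.5 of 0. The quantile scale is shown. With aligned medians every filled fall drawn turns sign in the first panel except those of Rpl23 and Rpl3l, and in the third except that of Rpl3l. Rpl3l was detected on resting Naïve arrays only, so its falls were in part fixed by the filter on detection. With Z-scores the filled rises of Rpl27, Rpl35 and Rps2 in the first panel and of Rpl10, Rpl27, Rpl28, Rpl41 and Rps16 in the third turn sign, as does the filled fall of Rps4x in the second.

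**Figure D3:**
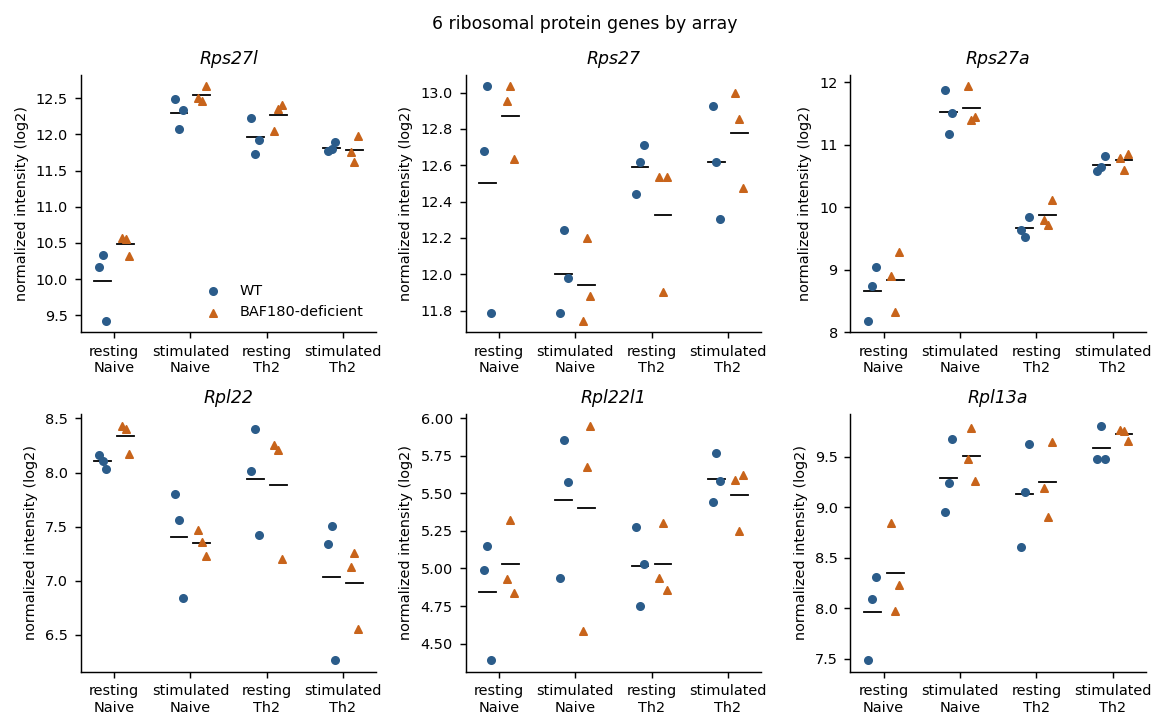
Normalized log2 intensity of Rps27l, Rps27, Rps27a, Rpl22, Rpl22l1 and Rpl13a on each of 24 arrays, by state (circles WT, triangles BAF180-deficient, bars the mean of 3, y axes differ). Rps27l separates resting Naïve arrays (9.42 to 10.57) from all others (11.62 to 12.67). Rps27 is lower after stimulation of Naïve cells on this scale and higher with aligned medians, as is Rpl22 in Naïve cells.

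Ratios of a paralog to its parent on the same array cancel a shift only as far as both probes share it. They were compared between states over 6 against 6 arrays with a two-sided exact permutation test (9 tests, Benjamini-Hochberg adjusted). They compare the change of 2 probes, and not how much there is of each mRNA. They were taken from background-corrected log2 intensities that were not scaled between arrays, and again from the quantile-normalized values (6 tests), a choice added after seeing the data. The log2 ratio of Rps27l to Rps27 was -2.54 ± 0.27 (SD, n = 6) in resting Naïve cells, 0.39 ± 0.34 in stimulated Naïve, -0.38 ± 0.49 in resting Th2 and -1.05 ± 0.51 in stimulated Th2 cells. Its highest resting Naïve array (-2.18) was below the lowest array of every other state. The ratio was higher by 2.93 in stimulated Naïve cells (exact permutation p = 0.00216, adjusted 0.00486) and by 2.16 in resting Th2 cells (exact permutation p = 0.00216, adjusted 0.00486), and lower by -0.67 in stimulated against resting Th2 cells (exact permutation p = 0.0498, adjusted 0.0747). From the quantile-normalized values the 3 differences were 2.91, 2.12 and -0.55 in the same order, with adjusted exact permutation p-values of 0.00324, 0.00324 and 0.0754. The smallest p that 924 splits can give is 0.00216. These splits ignore the letters, which were read as pairs of a WT and a BAF180-deficient array. The 6 arrays of a state may therefore count as fewer independent ones than the test assumes.

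The ratio of Rpl22l1 to Rpl22 differed between Th2 states. Rpl22l1 read 5.28, 4.75 and 5.03 on the WT and 4.93, 5.31 and 4.86 on the BAF180-deficient arrays of resting Th2 cells, and 5.44, 5.77 and 5.58 and 5.59, 5.25 and 5.62 after stimulation. With the fall of Rpl22 the log2 ratio went from -2.91 ± 0.39 to -1.44 ± 0.43 (SD, n = 6), a rise of 1.47 without overlap (exact permutation p = 0.00216, adjusted 0.00486). From the quantile-normalized values this rise was 1.42 (exact permutation p = 0.00216, adjusted 0.00324). The result in Naïve cells depended on the scale. The ratio was 0.69 higher after stimulation without scaling, where the arrays overlapped (exact permutation p = 0.0714, adjusted 0.0918), and 1.34 higher on the quantile scale, with -3.64 to -2.96 at rest and -2.88 to -1.26 after stimulation (exact permutation p = 0.00216, adjusted 0.00324). Between resting Th2 and resting Naïve cells it differed by -0.24 without scaling (exact permutation p = 0.29, adjusted 0.29) and by 0.39 on the quantile scale (exact permutation p = 0.128, adjusted 0.128). Rpl22l1 was detected on 21 of 24 arrays, and on 4 of the 6 resting Naïve ones. Its mean over all arrays was 5.23, near background, so a shift between arrays need not move it as much as Rpl22. This limit holds for the ratio in the Th2 states as well. On its own Rpl22l1 rose in stimulated against resting Naïve cells by 0.49 (adjusted p = 0.0456), and the difference between Th2 states was 0.52 (adjusted p = 0.0504). No ratio of Rpl3l to Rpl3 is given, although its 3 tests count among the 9, since Rpl3l was detected in resting Naïve cells only. Other paralogs among 10 listed (Rpl7l1, Rpl10l, Rpl26l1, Rpl36l, Rps4l, Rps4y2) had no kept probe under these symbols. Of the parents of the listed paralogs 6 had a kept probe. In stimulated against resting Naïve cells 4 of these (Rps27, Rpl22, Rpl3 and Rps4x) were lower (66.7%, all probes 25.7%), each of them turning higher with aligned medians. In stimulated against resting Th2 cells 2 were lower (Rpl22 and Rps4x, 33.3%, all probes 20.6%). In resting Th2 against resting Naïve cells 1 was higher (16.7%, all probes 27.2%), which was Rpl10, by 0.62, turning to -0.30 with Z-scores.

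Probes of the same gene differed in several cases, so a value for a gene is a value of its probe. Rpl38, which is required for the translation of certain homeobox mRNAs, differed by 0.09 (adjusted p = 0.559) between stimulated and resting Naïve cells on its bright probe and rose by 2.56 ± 0.26 (adjusted p = 3.54e-08) on the dimmer one. The dimmer probe read 7.36, 7.60 and 5.58 in WT and 7.84, 7.31 and 7.33 in BAF180-deficient resting cells, and 9.92, 9.21 and 9.78 and 10.02, 9.69 and 9.77 after stimulation. It is the probe that starts upstream of the annotated start, shown above. Rps24 had a bright probe at -0.45 (adjusted p = 0.00578, and 0.32 with aligned medians) and a dim probe at 1.47 (adjusted p = 1.74e-07), which read 6.01 to 6.51 at rest and 7.09 to 8.04 after stimulation. Rps19, another Diamond-Blackfan anaemia gene, differed by -0.17 (adjusted p = 0.15) on the bright probe, while the dim probe, detected on all 6 stimulated and none of the 6 resting Naïve arrays, was at least 1.55-fold higher after stimulation (adjusted p = 1.57e-06, measured means 5.46 and 4.43). The 4 probes of Rpl23 ran from -0.87 to 0.60. In stimulated against resting Th2 cells Rps3, a small-subunit protein that also acts in DNA repair, differed by 0.19 (adjusted p = 0.253) on its bright probe and rose by 0.87 ± 0.21 (adjusted p = 0.00189) on the dimmer one.

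**Figure D4:**
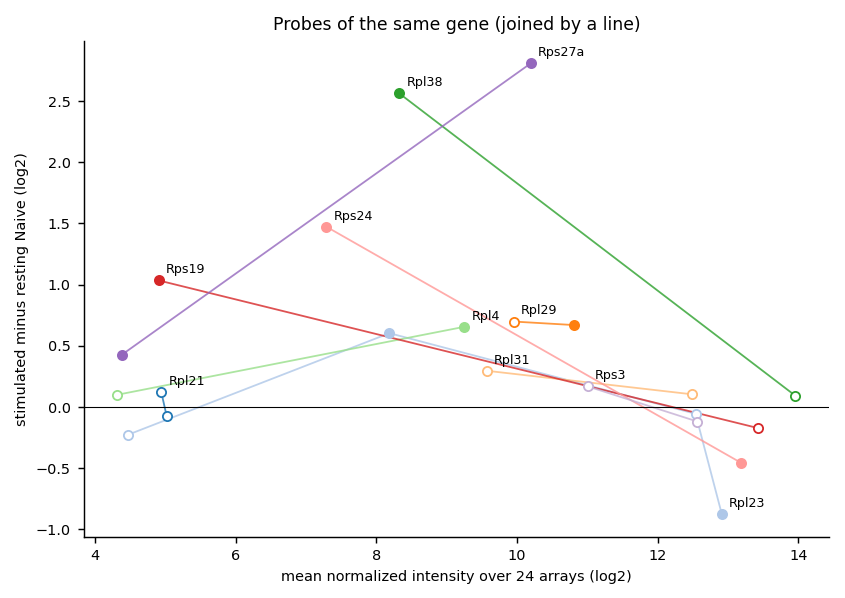
Mean normalized log2 intensity over 24 arrays (x) against the difference between stimulated and resting Naïve cells (y, log2) for genes with more than 1 kept probe, joined by lines, with filled points past an adjusted p of 0.05. For Rpl38, Rps24 and Rps19 the dim probe lies at 2.56, 1.47 and 1.03, that of Rps19 without detection at rest, and the bright probe at 0.09, -0.45 and -0.17. With aligned medians the bright probes of Rps24 and Rps19 turn to 0.32 and 0.66, and with Z-scores that of Rpl38 turns to -1.83.

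Between stimulated and resting Naïve cells the differences varied least among members above 12 and most among those between 8 and 12. Among the 34 members with a mean above 12 the SD of the differences between stimulated and resting Naïve cells was 0.31, with 4 higher and 7 lower. Among the 25 between 8 and 12 it was 0.85, with 9 higher and 1 lower, and among the 14 below 8 it was 0.60, with 3 and 2. Of all probes, whatever their brightness, 29.3% were higher and 25.7% lower. No share of all probes at the same brightness is given, so nothing particular to the members follows. In resting Th2 against resting Naïve cells the 25 of the middle class held 14 of the 20 higher probes and none of the lower ones (all probes of any brightness 27.2% higher and 22.5% lower). Whether the brightest probes were near saturation was not tested.

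Members with a known role beside the ribosome (Rps6, Rpl5, Rpl11, Rpl23, Rps19, Rps27a, Rpl40, Rps3, Rpl13a, Rpl38, Rps14 and Rpl10a) were represented by 9 genes and 16 probes. Of these 6 rose and 3 fell in stimulated Naïve (37.5% and 18.8%, all probes 29.3% and 25.7%), 5 and 2 in resting Th2 (31.2% and 12.5%, all probes 27.2% and 22.5%), and 3 and 0 in stimulated Th2 cells (18.8% and 0, all probes 18.3% and 20.6%). The medians were 0.02, 0.21 and 0.15. Rps6 fell by 0.38 ± 0.14 (adjusted p = 0.026) in stimulated Naïve cells, and was 0.53 higher with aligned medians. Rpl5, which binds MDM2 together with Rpl11 as part of the 5S particle, differed by -0.14 and 0.47 in stimulated Naïve and resting Th2 against resting Naïve cells and by 0.41 between Th2 states, and none of these passed the threshold. Of the stalk proteins Rplp1 and Rplp2 none of 2 probes was called, from which nothing follows about their levels. The value of Rplp1 was the same by construction on 22 of 24 arrays, and Rplp2 was detected on 2 of 24. Rplp0, the base of the stalk, which lies outside the rule as Arbp, rose in stimulated Naïve cells by 0.97 ± 0.12 (adjusted p = 6.26e-07) and in resting Th2 cells by 0.40 (adjusted p = 0.00802).

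Larger shares of the genes that build or use ribosomes were called. Of 33 kept probes of ribosome biogenesis and RNA polymerase I genes 28 rose and none fell in stimulated Naïve cells (84.8% and 0, all probes 29.3% and 25.7%). Their median was 1.21 (all probes 0.02), and the count was 28 or more under all 4 scalings. In stimulated Th2 cells 26 rose (78.8%, all probes 18.3%, and 22 to 26 probes over the scalings) with a median of 1.06. In resting Th2 cells 12 rose (36.4%, all probes 27.2%) with a median of 0.25. Examples in stimulated Naïve cells were nucleolin, Ncl (2.01), and the 60S assembly factor Ebna1bp2 (2.58, but 0.62 and 0.32 on other probes). The RNA polymerase I factor Ubtf differed by 0.12 (adjusted p = 0.51). Of 37 probes of translation initiation and elongation factors 25 rose and 4 fell in stimulated Naïve cells (67.6% and 10.8%, median 0.95). In stimulated Th2 cells 19 rose (51.4%, all probes 18.3%, median 0.45). In resting Th2 cells 13 rose and 5 fell (35.1% and 13.5%, all probes 27.2% and 22.5%, median 0.22). In stimulated Naïve cells Eef1e1 rose by 2.24 and Eif5a by 2.08, with 2.23 on another Eif5a probe. The largest rise of the list was 2.66, and Eif4a2 fell most (-0.96, turning to 0.14 with aligned medians).

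Other genes with TOP mRNAs were closer to the ribosomal proteins. Of their 23 probes 9 rose and 3 fell in stimulated Naïve cells (39.1% and 13%, all probes 29.3% and 25.7%), with a median of 0.35. With Z-scores 5 rose and 5 fell. In stimulated Th2 cells 7 rose and none fell (30.4% and 0, all probes 18.3% and 20.6%, median 0.30). In resting Th2 cells 9 rose and 1 fell (39.1% and 4.35%, all probes 27.2% and 22.5%, median 0.21). Fau, whose product contains the small-subunit protein S30, fell by 0.49 in stimulated Naïve cells, turning to 0.47 with aligned medians, where the initiation factor Eif4b rose by 1.54. This list shares 9 genes with the translation factors and 1 with the biogenesis list. Of 11 probes for mTORC1, S6 kinase and regulators of TOP translation 2 rose and 2 fell in stimulated Naïve cells (18.2% each). The counts were 1 and 4 in resting Th2 (9.09% and 36.4%) and 2 and 4 in stimulated Th2 cells (18.2% and 36.4%). Their median in stimulated Naïve cells was -0.15 and turned to 0.67 with aligned medians. Among them Eif4ebp1, an inhibitor of cap-dependent initiation that mTORC1 controls, rose by 3.82 in stimulated Naïve cells, and Pdcd4, an inhibitor of Eif4a, fell by 1.64. The MYC network and the p53 checkpoint had 13 probes, of which 4 rose and 3 fell, 3 and 3, and 2 and 2 in the same order. These are 30.8% and 23.1%, 23.1% and 23.1%, and 15.4% and 15.4%, near the shares of all probes given above. Myc rose by 1.44 in stimulated Naïve cells, the most of this list there, and by 2.06 in stimulated Th2 cells. Cdkn1a, a p53 target, rose by 2.83 in resting Th2 cells. Between genotypes 1 translation factor probe was lower (2.7%) and 1 probe of the MYC and p53 list higher (7.69%) by the 4 criteria used below. Both calls were in resting Naïve cells (all probes 0.681% in either direction), and no other probe of these lists was called.

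Between genotypes 1 member probe was called, in 1 cell state. The methods call a probe by 4 criteria together, a Z-ratio (difference over the SD of all differences) beyond 1.5, p under 0.05, FDR under 0.30 and signal above 0. By these none of 73 probes was called in resting Naïve (all probes 0.681%), 1 in stimulated Naïve (0.112%), none in resting Th2 (0.0842%) and none in stimulated Th2 cells (0.0913%). At an adjusted p below 0.05 none was called in any state (all probes 0.105%, 0.0211%, 0.0281% and 0.0281%). With limma's unadjusted p below 0.05, resting Naïve cells had 4 higher members and none lower (all probes 3.64% and 3.19%) and stimulated Naïve cells had 2 of each (1.16% and 1.1%). There were none in resting Th2 (1.83% and 1.6%) or stimulated Th2 cells (1.18% and 1.61%). The median differences between BAF180-deficient and WT cells were 0.09, 0.00, -0.03 and -0.01, each with the median of all probes at 0.00. With Z-scores they were 0.0060, -0.12, -0.33 and 0.23 (all probes -0.0019, 0.0014, 0.013 and -0.012). With aligned medians they were 0.26, 0.11, 0.38 and -0.23, where all probes moved as well (0.03, 0.05, 0.23 and -0.16). A median SE of 0.20 for a member means that small differences were not detectable with 3 arrays per group.

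The single call was the second probe of Rps27a in stimulated Naïve cells. It was 4.34, 4.46 and 4.57 in WT and 4.89, 4.92 and 4.94 in BAF180-deficient cells. The 3 BAF180-deficient arrays were the only ones of 24 to detect it, so it passed the filter through them alone, and the call is no support for a difference. Against the lowest detected signal of each WT array its BAF180-deficient mean was at least 1.20-fold higher. The call was lost under Z-scores, with aligned medians, without background correction, with the stricter detection filter, in a fit of these arrays alone and without any 1 of the 6 arrays other than WT C. The brighter probe of Rps27a read 11.88, 11.18 and 11.50 against 11.93, 11.40 and 11.44 and did not separate the genotypes.

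In resting Naïve cells Rps27l differed by 0.51 ± 0.19 (adjusted p = 0.576) and Rps15 by 0.51 ± 0.22 (adjusted p = 0.677). Rps27l read 10.16, 10.33 and 9.42 in WT and 10.57, 10.55 and 10.33 in BAF180-deficient cells, so that WT C was its lowest array. Without WT B Rps27l met the 4 criteria (adjusted p = 0.252). The lowest differences were those of Rps3a (-0.34), Rps6 (-0.17) and Rpl19 (-0.13), of which the last 2 turned to 0.030 and 0.058 with aligned medians.

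Member differences had an upper quartile of 0.25 in resting Naïve cells. It was 0.10 in stimulated Naïve, 0.09 in resting Th2 and 0.07 in stimulated Th2 cells. The lower quartiles were -0.04, -0.12, -0.12 and -0.08 in the same order. In stimulated Naïve cells Rpl27a was at 0.28 and Rpl10 at 0.27, and Rps16 was at -0.47, Rpl7a at -0.35 and Rps25 at -0.33. Rps16 read 12.12, 11.99 and 11.63 in WT and 11.09, 11.51 and 11.74 in BAF180-deficient cells, which overlap. In resting Th2 cells Rps27l was at 0.31, Rps13 at 0.22 and Rps27a at 0.21, and Rps3a at -0.31, Rps25 at -0.29 and Rps27 at -0.26. Rps27l and Rps13 turned to -0.087 and -0.14 with Z-scores, and Rps3a, Rps25 and Rps27 to 0.22, 0.23 and 0.17 with aligned medians. In stimulated Th2 cells Rps25 was at 0.29, Rps20 at 0.22 and Rpl39 at 0.19, and Rpl30 at -0.44, Rps13 at -0.19 and Rpl27 at -0.18. With aligned medians Rps25 and Rpl39 turned to -0.019 and -0.12, and with Z-scores Rps13 and Rpl27 turned to 0.045 and 0.24.

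**Figure D5:**
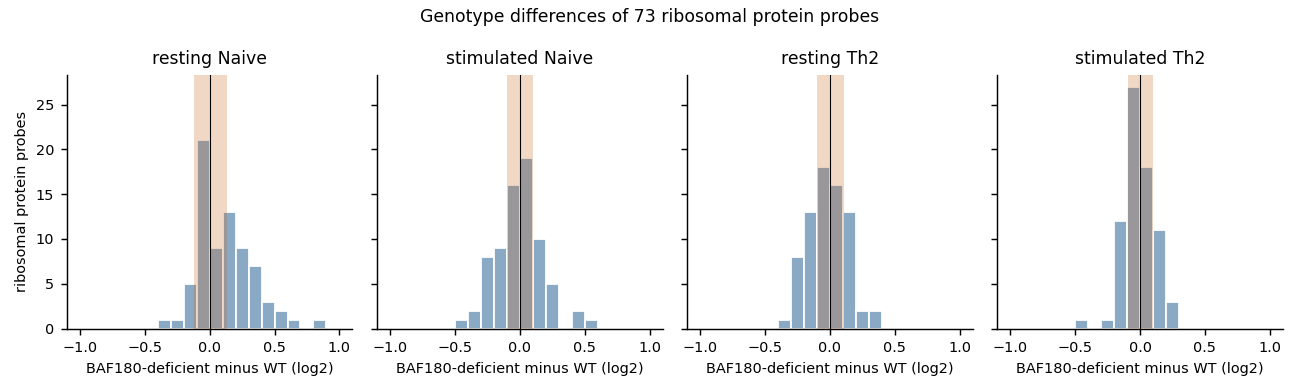
Histograms of the difference between BAF180-deficient and WT cells (x, log2, quantile scale, bars 0.1 wide) for 73 member probes (y, number of probes) in each cell state, with the quartile range of all 14246 probes shaded. On this scale the members center near 0 in each state, with medians of 0.09, 0.00, -0.03 and -0.01. With Z-scores the medians were 0.0060, -0.12, -0.33 and 0.23 (all probes -0.0019, 0.0014, 0.013 and -0.012). With aligned medians these were 0.26, 0.11, 0.38 and -0.23 (all probes 0.03, 0.05, 0.23 and -0.16).

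Groups without overlap between the genotypes were few. Among resting Naïve arrays 2 members were higher (2.74%, all probes 4.13%) and 1 lower (1.37%, all probes 3.85%) on all 3 BAF180-deficient arrays than on any WT array, in stimulated Naïve cells 1 and 1 (all probes 3.25% and 3.21%), in resting Th2 cells none and 3 (5.56% and 4.5%) and in stimulated Th2 cells none and 1 (3.66% and 3.65%).

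The response to stimulation or differentiation was also compared between genotypes. With WT arrays alone 14 members were higher and 4 lower in stimulated against resting Naïve cells (all probes 23.6% and 20%), and with BAF180-deficient arrays alone 10 and 7 (22.3% and 19.3%). Resting Th2 against resting Naïve cells gave 13 and 1 in WT (18.4% and 16%) and 8 and 2 without BAF180 (18.8% and 15.9%), and stimulated against resting Th2 cells gave 2 and 1 in WT (13% and 14.3%) and 5 and 2 without BAF180 (12% and 13.8%). The difference itself, tested as an interaction, was called for no member at an adjusted p below 0.05 in any of the 3 comparisons in limma (all probes 0.00702%, 0 and 0.00702%). Without adjustment 3, 0 and 2 members had p below 0.05 (all probes 2.31%, 1.8% and 2.72%) in stimulated against resting Naïve, stimulated against resting Th2, and resting Th2 against resting Naïve cells. Rps10 was among those of the first and of the last, beside Rps16 and the second probe of Rps27a in the first, named after their values were seen. Both comparisons use the resting Naïve arrays, on which Rps10 read 10.80, 11.27 and 11.12 in WT and 11.57, 11.51 and 11.41 without BAF180.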

How the data were processed

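For each probe and array the authors deposited an average bead intensity from GenomeStudio (version 1.6.0 in the submitters' processing notes), without normalization, and a detection p-value. Filtering kept 14246 of 25697 probes, those detected by at least 1 array at a cut-off of 0.02. Intensities were background corrected from the detection p-values (offset 16), quantile normalized and log2 transformed (limma 3.58.1, R 4.3.3, neqc). A model of 8 group means was fitted to all 24 arrays (lmFit and eBayes), with Benjamini-Hochberg adjustment over the kept probes. State comparisons average both genotypes, at an adjusted p below 0.05. Genotype comparisons use the 4 criteria of the methods, with p and FDR from limma. Precision is limited by having 3 arrays per group. The authors' Z-scores were not in the values used here and were recomputed as an alternative (log2 intensities, rescaled to the mean SD of the arrays). The other alternatives were alignment of medians, no background correction, neqc within a state, other detection filters, the arrays of the comparison only, 1 probe per gene, the letter as a block and each array left out. A count at an adjusted p below 0.05, one with the older symbols and paralog ratios on the quantile scale were added after seeing the data.

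The members and lists were chosen with earlier results of these data known. Named genes were stalk proteins, paralogs and their parents, members with a textbook role, the 5 largest rises and falls of each state comparison, the 3 largest and smallest of each genotype comparison and its calls, by the brightest probe, Pbrm1, and up to 4 examples of each other list. Some members that this rule picks are not reported here by name, and the counts include them. Replicate letters were checked as pairs, since a figure legend of the study speaks of 3 pairs of mice: deviations from the group means of the WT and BAF180-deficient array of a letter correlated at 0.30 (A), 0.14 (B) and 0.52 (C), so the letters were read as pairs. Correlations between arrays of a group were 0.954 to 0.989, and none was a copy. Older symbols were matched to RefSeq by Entrez ID. The pipeline was tested on simulated data. Promoter sequences are those of RefSeq, GRCm38.p6, and probe sequences are those of the array. The build of the array's own coordinates is not given in the sources used here. Python 3.11.15, pandas 2.3.3 and matplotlib 3.10.9 were used for sequences and figures.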

Additional observations from a re-analysis of the deposited data

How the results depend on the processing

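The counts of members against resting Naïve cells depend on the scaling between arrays. With Z-scores, stimulated against resting Naïve cells gave 10 higher and 35 lower ribosomal protein probes and resting Th2 against resting Naïve cells 10 and 28, in place of 16 and 10, and 20 and 5. With median alignment without the quantile step the counts were 55 and 1, and 57 and 1. For stimulated against resting Th2 cells (8 and 2) median alignment gave 2 and 1, Z-scores 1 lower, the arrays of the comparison alone 17 higher and 1 probe per gene 5 higher. With detection required on all 3 arrays of a group 3 probes were lower in resting Th2 against resting Naïve cells. The 1 genotype call in stimulated Naïve cells went to 0 under Z-scores, median alignment, no background correction, the stricter detection filter, the arrays of the comparison, 1 probe per gene and the adjusted p rule. The cause was not tested.

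Leaving out each array in turn gave 14 to 20 higher and 7 to 10 lower members in stimulated against resting Naïve cells, 7 to 11 and 1 to 3 in stimulated against resting Th2, and 14 to 20 and 2 to 8 in resting Th2 against resting Naïve cells. Genotype calls were 0 to 1 in resting Naïve (1 without WT B, WT C or BAF180-deficient B), 0 to 1 in stimulated Naïve (1 only without WT C) and 0 to 0 in both Th2 states, and interactions 0 to 0.

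With median alignment these differences named in the text changed sign: for the genotype Rps6 (0.030) and Rpl19 (0.058) in resting Naïve, Rps3a (0.22), Rps25 (0.23) and Rps27 (0.17) in resting Th2, and Rps25 (-0.019) and Rpl39 (-0.12) in stimulated Th2 cells, in stimulated against resting Naïve cells Rpl22 (0.16), Rps27 (0.30), Rps14 (0.35), Rps6 (0.53), Rps4x (0.38), Rpl3 (0.67) and the bright probe of Rps24 (0.32), and in resting Th2 against resting Naïve cells Rpl23 (0.068), Rps24 (0.51) and Rps14 (0.64). With Z-scores the genotype differences of Rps27l (-0.087) and Rps13 (-0.14) in resting Th2 and Rps13 (0.045) and Rpl27 (0.24) in stimulated Th2 cells changed sign, as did Rps4x (0.13) in stimulated against resting Th2 and Rpl10 (-0.30) in resting Th2 against resting Naïve cells. Of the 10 called falls in stimulated against resting Naïve cells 2 and of the 5 in resting Th2 against resting Naïve cells 1 kept their sign under all 4 scalings. These lists cover called state differences and the genotype differences named, not differences that passed no threshold. With 1 array left out the genotype difference in resting Naïve cells ranged from -0.35 to 0.041 for Rps6 and from -0.27 to 0.044 for Rpl19, and that of Rps13 in resting Th2 cells from -0.063 to 0.47.

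On the quantile scale the log2 ratio of Rpl22l1 over Rpl22 rose by 1.34 in stimulated against resting Naïve cells (adjusted exact permutation p = 0.00324) in place of 0.69 (adjusted 0.0918), and its difference between resting Th2 and resting Naïve cells turned from -0.24 to 0.39, past the threshold on neither scale. The other 4 ratio comparisons kept their sign and their side of the threshold.

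With the replicate letter as a block the counts were 17 higher and 10 lower, 8 and 2, and 20 and 5 for stimulated against resting Naïve, stimulated against resting Th2 and resting Th2 against resting Naïve cells, and the pairing changed no call of a gene named here. The permutation tests of the paralog ratios did not use this block.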
